A study of Mus musculus with 9 samples.

Results

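Lysosomal hydrolases and membrane proteins were followed as a list of 39 genes named by symbol, and 36 of them were found in all 3 tables of the series. The list holds 6 membrane proteins of the lysosome or late endosome, 11 proteases, 11 glycosidases, 4 sulfatases, 5 enzymes or carriers of lipids, the transcription factor *Tfeb* and the secreted and lysosomal factor *Grn*. The rule that names them uses no measured value, but the list was chosen with earlier results of these data known. The expression of *Naglu*, *Ids* and *Sgsh* was not analysed here. RNA came from primary neonatal rat ventricular cardiomyocytes (NRVMs) that were isolated from Sprague Dawley rats aged 1 to 2 days, kept in culture for 48 h, infected with adenovirus at an MOI of 50 and collected 48 h later. The 3 groups were Adeno-LacZ, which carries a bacterial enzyme and served as the control, Adeno-Nrf1 and Adeno-Nrf2, with 3 libraries in each, and all 9 libraries were of infected cells. The organism field of the labels names the mouse, whereas the cell type, strain and genome build are those of the rat. Nrf1 and Nrf2 are transcription factors of the cap'n'collar family, and the question here was how the lysosomal genes differed between cells given either of them and the control.

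Lysosomes are acidic organelles in which macromolecules taken up by the cell or delivered by autophagy are broken down. Their soluble hydrolases are tagged in the Golgi apparatus and sorted to the organelle, while highly glycosylated membrane proteins line its inner face and a proton pump, the V-ATPase, keeps the lumen acidic. *Tfeb* encodes a master regulator that binds the CLEAR element in the promoters of many of these genes. In heart muscle the organelle is known above all for the storage diseases that damage it, such as the loss of acid alpha-glucosidase (*Gaa*) in Pompe disease and of Lamp2 in Danon disease.

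The tables give 1 mean normalized count per gene and group, and each table was normalized on its own for 1 pair of groups. A value below is therefore the authors' mean of a group, it has no spread between libraries beside it, and no test between conditions was run on it. A gene was counted as higher or lower when the ratio of the group means passed 1.5-fold in a table and the mean of either group was at least 10, and the count was read against the share of all genes that passed the same rule. A 95% counting interval is given for main ratios, from the fewest reads that could produce the means. It covers counting error only. By the steps between the lowest means, the largest size factor in a group was 1.18 to 1.21 times the smallest. *Nfe2l2*, the gene of Nrf2, had a mean of 3475 in LacZ and 75066 in Nrf2 cells, a ratio of 21.6, and 2688 in Nrf1 cells against 3254 in LacZ. Per the study's methods the viruses carried the mouse sequences of Nrf1 and Nrf2, while reads were aligned to the rat genome. The mean in Nrf2 cells can thus hold reads of the rat gene and of the mouse sequence, which were not separated. The gene of Nrf1 was not analysed here, so the overexpression of Nrf1 was not checked.

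With Nrf1, most of the lysosomal list lay below the control, while a few genes lay above it. Of the 36 measured genes 16, or 44.4%, were past 1.5-fold lower than in LacZ cells, against 18.1% of the 11453 genes compared. Only *Gaa* and *Ctsd* were past 1.5-fold higher, which is 5.56% of the list against 11.9% of all genes. The median log2 ratio of the list was -0.52, and that of all genes was 0.00. With Nrf2, *Gaa* was the 1 gene past 1.5-fold higher, and 4 genes, *Ctsk*, *Ctss*, *Ctsz* and *Gusb*, were lower. These are 2.78% and 11.1% of the list, beside 9.78% and 10.9% of the 11630 genes compared, so the share of lower genes was close to that of all genes and the share of higher genes was below it. The median log2 ratio with Nrf2 was -0.26, and that of all genes was -0.0032. Both comparisons use the same LacZ libraries and are not independent. With Nrf1 10 genes lay above 0 and 26 below it, and with Nrf2 9 lay above and 27 below.

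**Figure D1:**
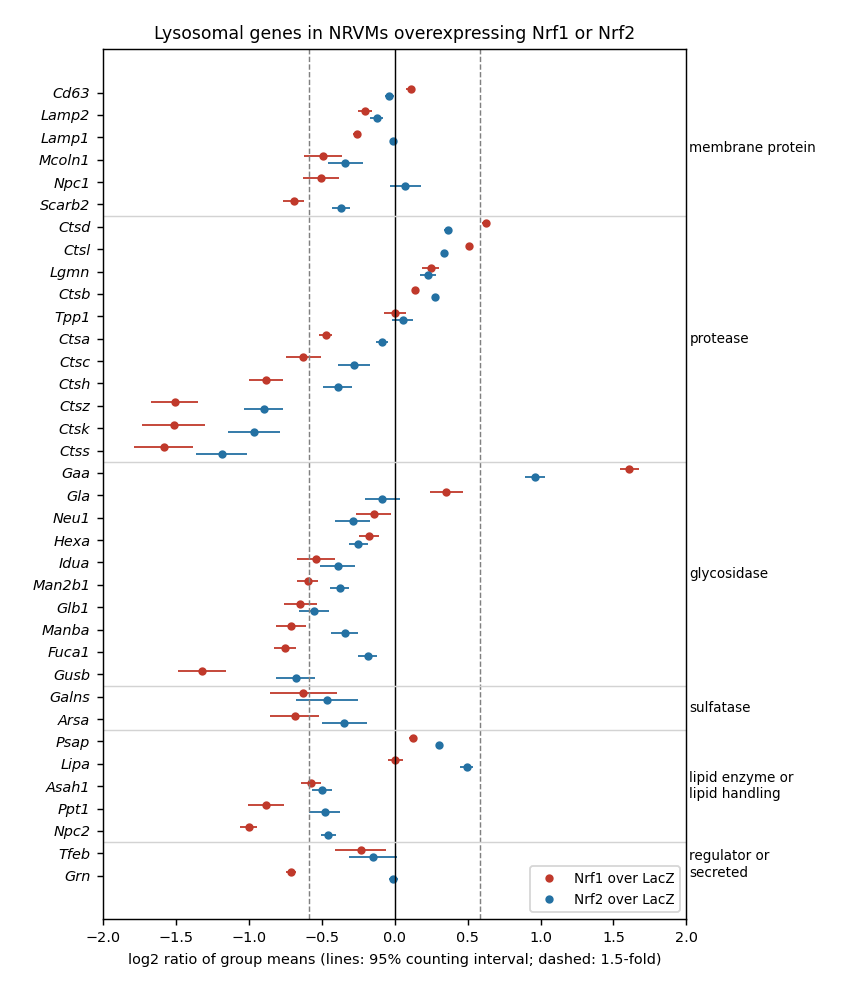
Log2 ratio of group means for the 36 measured lysosomal genes, by role, for Nrf1 over LacZ (red) and Nrf2 over LacZ (blue). Horizontal lines are 95% counting intervals, which leave out the spread between libraries, and dashed lines mark 1.5-fold; most red points lie to the left of 0 and *Gaa* lies farthest to the right in both comparisons.

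The gene with the highest ratio in the list was *Gaa*, which encodes the acid alpha-glucosidase that degrades glycogen in the lysosome. Its mean was 922 in LacZ and 2811 in Nrf1 cells, a ratio of 3.05 (log2 ratio 1.61, counting interval 1.54 to 1.67). In the table with Nrf2 the means were 984 in LacZ and 1920 in Nrf2 cells, a ratio of 1.95 (log2 ratio 0.96, interval 0.90 to 1.03). *Ctsd*, the aspartic protease cathepsin D, followed with Nrf1 at 6504 in LacZ and 10027 in Nrf1 cells, a log2 ratio of 0.62 (interval 0.60 to 0.65). This call rested on the scaling, because the log2 ratio of *Ctsd* was 0.57 both after re-centring on the median gene and after giving both groups the same sum, just inside the cutoff of 0.58. With Nrf2 *Ctsd* stood at 6946 in LacZ and 8958 in Nrf2 cells, a log2 ratio of 0.37. Next in order with Nrf1 came *Ctsl* (cathepsin L), at 8849 and 12626 with a log2 ratio of 0.51, *Gla* (alpha-galactosidase A, lost in Fabry disease), at 404 and 517 with 0.35, and *Lgmn* (legumain, an asparaginyl endopeptidase that processes cathepsins), at 1711 and 2030 with 0.25. These 3 were within 1.5-fold. With Nrf2 the log2 ratio of *Ctsl* was 0.34 and that of *Lgmn* 0.23, while *Gla* was at -0.08.

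The promoters of these genes are shown because the known regulator of the pathway binds a short motif there. No rat sequence was used: the promoters are those of the mouse genes with the same symbols, from RefSeq on GRCm38.p6, 250 bases before to 50 bases after the start, and they were found for 34 of the 39 genes, genes without expression values among them. The E-box CACGTG, searched on both strands, was present in 12 of these 34 promoters (35.3%) and in 8.09% of the promoters of all 27025 genes. The longer CLEAR core TCACGTGA, which contains the E-box, was present in 4 (*Mcoln1*, *Ctsa*, *Ctsd* and *Gla*), or 11.8%, against 1.12% of all promoters. The antioxidant response element TGACNNNGC, the motif that Nrf1 and Nrf2 bind with small Maf proteins, was present in 7 (*Scarb2*, *Ctsd*, *Ctsz*, *Tpp1*, *Hexa*, *Naglu* and *Psap*), or 20.6%, against 14.0%. A match is a description of the letters and no evidence that a factor binds there in rat cells. The windows below run 5′ to 3′ on the strand of the gene and end before its start, with each CACGTG in capitals. The first 5 are the genes with the highest ratios with Nrf1, chosen after their values were seen, and *Glb1* and *Arsa* hold the same motif but were lower with Nrf1. *Gaa* is shown from chr11:119267783-119267868 (plus strand), *Ctsd* from chr7:142387880-142388077 (minus), *Ctsl* from chr13:64370711-64370770 (minus), *Gla* from chrX:134601154-134601255 (minus), *Lgmn* from chr12:102439096-102439181 (minus), *Glb1* from chr9:114400990-114401075 (plus) and *Arsa* from chr15:89477425-89477480 (minus).
*Gaa*: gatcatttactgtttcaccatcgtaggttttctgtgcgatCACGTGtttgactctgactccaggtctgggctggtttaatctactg
*Ctsd*: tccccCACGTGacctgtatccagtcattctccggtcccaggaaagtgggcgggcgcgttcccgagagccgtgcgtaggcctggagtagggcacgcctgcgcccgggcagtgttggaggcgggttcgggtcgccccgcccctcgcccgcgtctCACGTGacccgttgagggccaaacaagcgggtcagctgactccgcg
*Ctsl*: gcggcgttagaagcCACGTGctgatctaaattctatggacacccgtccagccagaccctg
*Gla*: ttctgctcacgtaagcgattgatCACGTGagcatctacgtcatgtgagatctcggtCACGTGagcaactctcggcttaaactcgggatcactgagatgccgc
*Lgmn*: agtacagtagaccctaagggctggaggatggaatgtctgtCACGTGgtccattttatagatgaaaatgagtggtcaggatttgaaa
*Glb1*: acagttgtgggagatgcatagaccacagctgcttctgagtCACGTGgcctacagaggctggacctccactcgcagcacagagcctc
*Arsa*: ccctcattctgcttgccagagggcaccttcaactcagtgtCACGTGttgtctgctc

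The E-box closest to the start among these lay 16 bases before it in *Arsa*, and the one in *Gaa* began 140 bases before it. *Gla* held the motif at 227 and at 194 bases before the start and *Ctsd* at 245 and at 98 bases. Of the 31 measured genes with a promoter, 10 held CACGTG in it, and their median log2 ratio with Nrf1 was -0.01 (range -0.69 to 1.61). For the 21 without it the median was -0.63 (range -1.58 to 0.12). All 5 of the highest genes with Nrf1 were among the 10, as were *Lamp1*, *Mcoln1*, *Ctsa*, *Glb1* and *Arsa*, which lay below 0. With Nrf2 the medians were -0.05 with the motif and -0.29 without it, and 3 of the 5 highest genes held it (*Gaa*, *Ctsd* and *Ctsl*, but not *Lipa* and *Psap*). These differences were not tested. The measured genes with the antioxidant response element had log2 ratios with Nrf1 of -0.69 (*Scarb2*), 0.62 (*Ctsd*), -1.51 (*Ctsz*), 0.00 (*Tpp1*), -0.18 (*Hexa*) and 0.12 (*Psap*). The genes with CACGTG include *Lamp1*, *Ctsl* and *Ctsd*, which are among the genes with the most reads. The motif was not separated from the count level.

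Cathepsins made up most of the proteases, and they lay on both sides of the control. *Ctss* and *Ctsk* are papain-like cysteine proteases best known from antigen-presenting cells and from osteoclasts, and *Ctsz* is a carboxypeptidase of the same family. *Ctss* had a mean of 291 in LacZ and 97.1 in Nrf1 cells, a log2 ratio of -1.58 (interval -1.79 to -1.38), the lowest ratio of the list. *Ctsk* went from 252 in LacZ to 88.0 in Nrf1 cells, a log2 ratio of -1.52 (interval -1.73 to -1.30). *Ctsz* had means of 445 and 157, with a log2 ratio of -1.51 (interval -1.67 to -1.35). The Nrf1 mean of each was thus at most 0.352 of the LacZ mean.

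With Nrf2 these 3 genes were also lower than in LacZ. *Ctss* had 311 in LacZ and 137 in Nrf2 cells (log2 ratio -1.18), *Ctsk* 269 and 138 (-0.96) and *Ctsz* 475 and 255 (-0.90). Another pair of proteases passed the cutoff with Nrf1. *Ctsh*, an aminopeptidase, had means of 637 and 345 (log2 ratio -0.88), and *Ctsc*, the dipeptidyl peptidase that activates granule proteases, had 511 and 331 (-0.63), with an interval of -0.75 to -0.50 that reaches across the cutoff. With Nrf2 the log2 ratios of these were -0.39 and -0.28. In all, 5 of the 11 proteases (45.5%, beside 18.1% of all genes) were lower with Nrf1 and 1 (9.09%, beside 11.9%) was higher, and the median was -0.47. The remaining proteases were the carboxypeptidase *Ctsa*, with a log2 ratio of -0.47 with Nrf1, the cysteine protease *Ctsb* with 0.14 and the tripeptidyl peptidase *Tpp1* with 0.00. The sum of the protease means was nevertheless above the control, by 0.25 on the log2 scale with Nrf1 and 0.23 with Nrf2, since *Ctsb*, *Ctsl* and *Ctsd* hold most of these reads.

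The glycosidases remove sugars one by one from glycoproteins, glycolipids and glycosaminoglycans. Apart from *Gaa* they were mostly below the control with Nrf1, and 5 of the 10 measured passed the cutoff, beside 18.1% of all genes. *Gusb* (beta-glucuronidase) had a mean of 387 in LacZ and 155 in Nrf1 cells, a log2 ratio of -1.32 (interval -1.48 to -1.16), and 414 and 259 in the table with Nrf2, a log2 ratio of -0.68 (interval -0.81 to -0.54). *Fuca1* (alpha-fucosidase) had 1347 and 799 with Nrf1, a log2 ratio of -0.75. The beta-mannosidase *Manba* had 739 and 450 (-0.71), and the alpha-mannosidase *Man2b1* 1329 and 878 (-0.60). *Glb1* (beta-galactosidase) had 620 and 396 (-0.65). The counting intervals of *Man2b1* (-0.67 to -0.52) and *Glb1* (-0.76 to -0.54) reach across the cutoff. With Nrf2 these 4 lay within 1.5-fold, at log2 ratios of -0.19, -0.34, -0.38 and -0.55 in the order named. *Glb1* came past the cutoff with Nrf2 when both groups were given the same sum (-0.63).

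The other glycosidases were closer to the control. The log2 ratio of *Idua*, the iduronidase lost in Hurler syndrome, was -0.54 with Nrf1 and -0.39 with Nrf2. That of *Hexa*, the hexosaminidase subunit lost in Tay-Sachs disease, was -0.18 and -0.25, and that of the sialidase *Neu1* was -0.14 and -0.29. With Nrf1 *Idua* passed the cutoff under both other scalings, at -0.59 and -0.60.

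Both measured sulfatases, of the 4 listed, were lower with Nrf1, beside 18.1% of all genes. *Arsa*, which removes the sulfate of sulfatides, had a mean of 269 in LacZ and 167 in Nrf1 cells (log2 ratio -0.69, interval -0.86 to -0.52). *Galns*, which acts on keratan sulfate, had 146 and 94.3 (log2 ratio -0.63, interval -0.86 to -0.40). The interval of each reaches across the cutoff, so at these read numbers counting error alone could move the 1.5-fold call of either. With Nrf2 the log2 ratios were -0.35 and -0.46.

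Among the genes of lipid breakdown, the cholesterol carrier *Npc2* stood lowest with Nrf1. It had means of 2410 in LacZ and 1204 in Nrf1 cells (log2 ratio -1.001, interval -1.06 to -0.94), a ratio of 2.00 in favour of the control, and 2573 and 1876 in the table with Nrf2 (-0.46). *Ppt1*, a thioesterase that removes palmitate from proteins, had 571 and 310 with Nrf1 (-0.88) and 610 and 437 with Nrf2 (-0.48). The acid ceramidase *Asah1* lay just inside the cutoff with Nrf1, at 1453 and 976 (-0.57), and passed it under both other scalings (-0.63). With Nrf2 it was at -0.50. *Lipa*, the acid lipase that hydrolyses cholesteryl esters and triglycerides, did not follow this pattern. Its means with Nrf1 were 2218 and 2223 (log2 ratio 0.00), and with Nrf2 2369 and 3335 (0.49, interval 0.45 to 0.54), within the cutoff. *Psap*, the precursor of the saposins that present sphingolipids to their hydrolases, was at 0.12 with Nrf1 and 0.30 with Nrf2.

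By their medians the membrane proteins differed less from the control than the list as a whole. These were -0.38 with Nrf1 and -0.08 with Nrf2, beside -0.52 and -0.26 for the list. With Nrf1 5 of the 6 lay below 0, and 1 (16.7%) was past the cutoff, near the 18.1% of all genes. *Lamp1*, a major glycoprotein of the limiting membrane, had a mean of 9506 in LacZ and 7933 in Nrf1 cells (log2 ratio -0.26), and 10151 and 10080 in the table with Nrf2 (-0.01). *Lamp2*, which also takes part in chaperone-mediated autophagy, had 2929 and 2544 with Nrf1 (-0.20) and 3128 and 2869 with Nrf2 (-0.12). The tetraspanin *Cd63* was at 0.11 and -0.04. Only *Scarb2* (LIMP-2), the receptor that carries glucocerebrosidase to the lysosome, passed the cutoff. It had 1622 in LacZ and 1003 in Nrf1 cells (-0.69, interval -0.76 to -0.62) and 1732 and 1340 with Nrf2 (-0.37). The cholesterol transporter *Npc1* had 464 and 328 with Nrf1 (-0.50) and 496 and 522 with Nrf2 (0.07), and the calcium channel *Mcoln1* was at -0.49 and -0.34.

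*Tfeb* itself was close to the control, with means of 216 in LacZ and 184 in Nrf1 cells (log2 ratio -0.23, interval -0.41 to -0.06) and 231 and 208 with Nrf2 (-0.15, interval -0.31 to 0.02). Its activity is set largely by phosphorylation and entry into the nucleus, which these tables do not measure. *Grn* (progranulin), a growth factor precursor cut into granulins in the lysosome, had 5759 in LacZ and 3517 in Nrf1 cells, a log2 ratio of -0.71 (interval -0.75 to -0.67). With Nrf2 it had 6150 and 6102, a log2 ratio of -0.01.

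**Figure D2:**
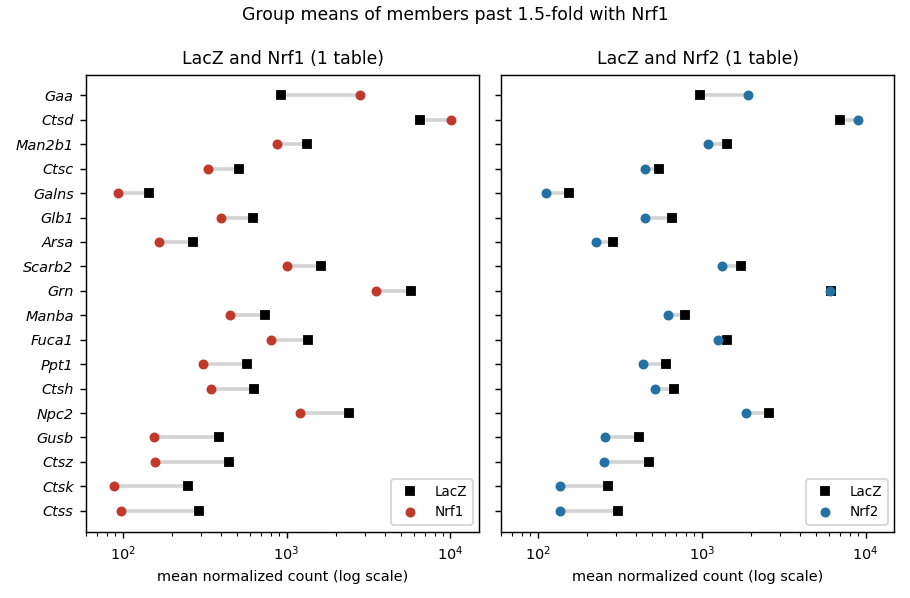
Mean normalized counts, on a log scale, of the 18 lysosomal genes past 1.5-fold with Nrf1, in the table with Nrf1 (left) and in the table with Nrf2 (right). Squares are LacZ and circles the factor; in the left panel only *Gaa* and *Ctsd* have the circle to the right of the square, and in the right panel the circles lie closer to the squares, with those of *Grn* on top of each other.

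The list as a whole held about the same part of the reads in all groups. The 36 genes made up 0.973% of the summed normalized counts in LacZ, 0.943% in Nrf1 and 0.993% in Nrf2 cells. Their summed means differed from LacZ by 0.01 on the log2 scale with Nrf1 and by 0.11 with Nrf2. The 5 genes with the most reads, *Ctsb*, *Ctsl*, *Psap*, *Lamp1* and *Ctsd*, held 53.8% of the reads of the list in LacZ cells, 62.2% in Nrf1 cells and 59.7% in Nrf2 cells. The other 31 genes together were below LacZ, by log2 ratios of -0.28 and -0.09. Counts are not scaled to transcript length, so these are shares of reads and not levels of one gene against another.

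The low ratios thus lay mostly among the genes with fewer reads. When the list was split at its median count (an average of 1085 over LacZ and Nrf1), the 18 genes above it had a median log2 ratio of -0.09 and 4 were lower, and the 18 below it had a median of -0.67 and 12 were lower. All genes showed a smaller difference in the same direction, with a median of 0.10 and 5.83% lower among the 2041 above that count and a median of -0.03 and 20.8% lower among the 9412 below it. Over the 36 genes the Spearman correlation of count and log2 ratio was 0.59 with Nrf1 and 0.68 with Nrf2. These points are genes of the same libraries and not replicates.

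**Figure D3:**
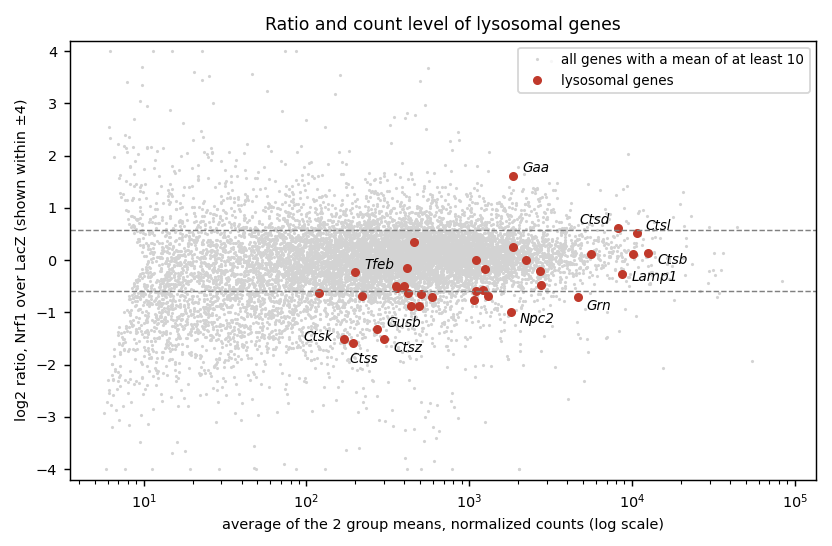
Log2 ratio of Nrf1 over LacZ against the average of both group means (log axis) for all 11453 genes compared (grey) and the 36 lysosomal genes (red), with 1.5-fold dashed. *Ctsk*, *Ctss*, *Ctsz* and *Gusb* sit together near the lower left of the red points, and the genes with the most reads lie closer to 0.

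Nrf1 and Nrf2 cells were also compared directly by their group means, in the last of the tables. *Grn* stood highest, with a mean of 3924 in Nrf1 and 6340 in Nrf2 cells (log2 ratio 0.69, interval 0.66 to 0.73). *Gusb* had 173 and 269 (0.63, interval 0.46 to 0.81) and *Ctsz* 175 and 265 (0.60, interval 0.43 to 0.77). These 3 genes, 8.33% of the list, were past 1.5-fold higher in Nrf2 cells, against 12.3% of the 11514 genes compared, and the intervals of *Gusb* and *Ctsz* reach across the cutoff. *Gaa* was the 1 gene past 1.5-fold lower in Nrf2 cells, with 3136 in Nrf1 and 1995 in Nrf2 cells (-0.65, interval -0.70 to -0.60), or 2.78% of the list against 5.16% of all genes.

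Most of the list lay within 1.5-fold between the factors. In this comparison 28 of 36 genes were above 0, the median log2 ratio was 0.19, and that of all genes was -0.0046. The Nrf1 libraries behind this comparison are those compared with LacZ above, so the comparisons are not independent. Just inside the cutoff were *Npc1* (365 in Nrf1 and 542 in Nrf2 cells, 0.57), *Fuca1* (891 and 1315, 0.56), *Ctsk* (98.2 and 143, 0.54) and *Npc2* (1343 and 1949, 0.54). *Fuca1* and *Npc1* passed it after re-centring on the median gene, at 0.59 and 0.60. On the other side of 0 lay *Gla* (577 and 424, -0.45), *Ctsd* (11187 and 9308, -0.27) and *Ctsl* (14086 and 12425, -0.18). Of the 5 genes highest in Nrf2 over Nrf1 that have a promoter in the mouse table, 0 held CACGTG.

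**Figure D4:**
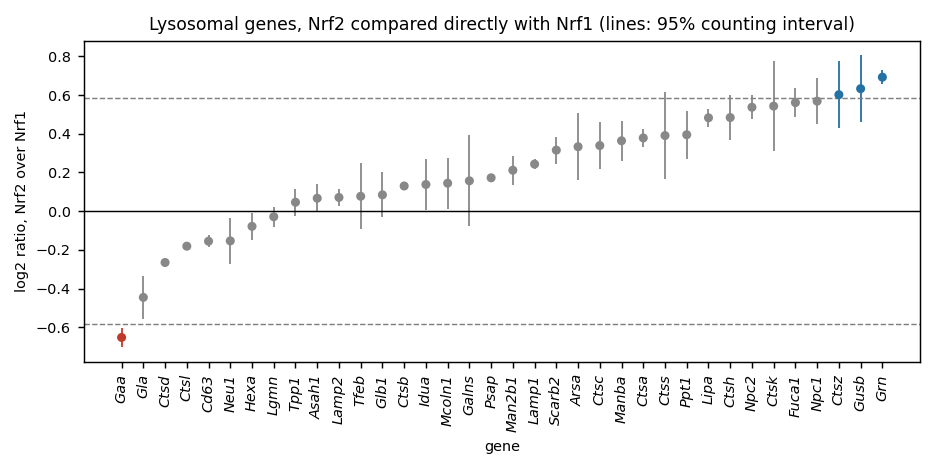
Log2 ratio of Nrf2 over Nrf1 for the 36 lysosomal genes in ascending order, with 95% counting intervals that leave out the spread between libraries and 1.5-fold dashed. *Gaa* lies below the lower dashed line, *Ctsz*, *Gusb* and *Grn* lie above the upper one, and 28 of the 36 points are above 0.

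Other genes of the lysosome were described from lists written from textbook knowledge. Their counts stand beside the shares of all genes past the cutoff, 11.9% higher and 18.1% lower with Nrf1, and 9.78% higher and 10.9% lower with Nrf2. Of 26 other lysosomal hydrolases with enough reads, 9 (34.6%) were lower with Nrf1 and 1 (3.85%) was higher, with a median log2 ratio of -0.17. The serine peptidase *Dpp7* had a mean of 1166 in LacZ and 545 in Nrf1 cells (-1.10). *Ggh*, which trims folate polyglutamates, was on opposite sides of the control, with 175 and 106 with Nrf1 (-0.72) and 187 and 351 with Nrf2 (0.91). With Nrf2, 1 of the 26 (3.85%) was lower, 2 (7.69%) were higher, and the median was 0.01. The amidase *Naaa* was lower with both (-0.76 and -0.92), and the nuclease *Dnase2* had 167 and 95.4 with Nrf1 (-0.80). The acid sphingomyelinase *Smpd1* had 1677 and 2928 with Nrf2 (0.80) and 1570 and 1786 with Nrf1 (0.19).

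Of 30 other lysosomal membrane proteins, 3 were higher and 5 (16.7%) lower with Nrf1 (median -0.13), and 1 (3.33%) was higher and 5 lower with Nrf2 (median -0.16). *Abca2*, a lipid transporter of late endosomes and lysosomes, had 311 in LacZ and 1105 in Nrf1 cells (1.83) but 332 and 358 with Nrf2 (0.11). *Slc38a9*, the arginine sensor of the mTORC1 complex, had 143 and 360 with Nrf1 (1.33) and 153 and 256 with Nrf2 (0.74). *Cd68*, a glycoprotein abundant in macrophages, had 275 and 91.2 with Nrf1 (-1.59) and 294 and 180 with Nrf2 (-0.71).

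With Nrf1 the subunits of the proton pump had a median above the control. Of 22 V-ATPase subunits with enough reads 6 (27.3%) were higher and 2 (9.09%) lower, and the median log2 ratio was 0.37. The summed mean of all 24 listed subunits differed by 0.43. *Atp6v1h* had a mean of 1007 in LacZ and 2128 in Nrf1 cells (1.08), and *Atp6v1g2* had 37.4 and 79.4 (1.09). With Nrf2 3 (13.6%) were higher and 1 (4.55%) was lower, with a median of 0.18. The highest was *Atp6v0d2*, a subunit isoform known from osteoclasts and macrophages, with 16.5 in LacZ and 73.4 in Nrf2 cells (2.15) and 15.5 and 8.90 with Nrf1 (-0.80). *Atp6v0a4*, an isoform known from the kidney, had 14.7 and 33.9 with Nrf2 (1.20) and 13.8 and 13.6 with Nrf1 (-0.02).

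The genes that sort lysosomal enzymes had medians of 0.30 with Nrf1 and 0.14 with Nrf2, with 3 of 24 (12.5%) higher and 1 (4.17%) lower with each factor, so the share of higher genes was near that of all genes. *Sorl1*, a sorting receptor, had 32.1 in LacZ and 115 in Nrf1 cells (1.84) and 34.3 and 127 with Nrf2 (1.88). The adaptor subunit *Ap3s2* had 342 and 756 with Nrf1 (1.15), and the adaptor *Gga2* had 288 and 560 with Nrf2 (0.96). *Gnptg*, a subunit of the enzyme that makes the mannose 6-phosphate tag, had 308 and 186 with Nrf1 (-0.73) and 329 and 199 with Nrf2 (-0.72). Of 23 genes of the Tfeb family and of mTORC1 on the lysosome, 1 (4.35%) was higher and 2 (8.70%) lower with Nrf1, and 1 was higher and 1 lower with Nrf2. Among them *Tfec* had 77.6 and 24.7 with Nrf1 (-1.65) and 82.9 and 113 with Nrf2 (0.45). Of 23 genes of lysosome fusion and positioning, 2 (8.70%) were higher with Nrf1 (*Plekhm1* at 0.72 and *Vamp8* at 0.60) and 0 were past the cutoff with Nrf2. The cystatins inhibit cysteine cathepsins. Of 3 with enough reads, *Cst3* was lower with Nrf1 (3156 and 1846, -0.77) and *Cst6* was higher with Nrf2 (93.5 and 148, 0.66).

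**Figure D5:**
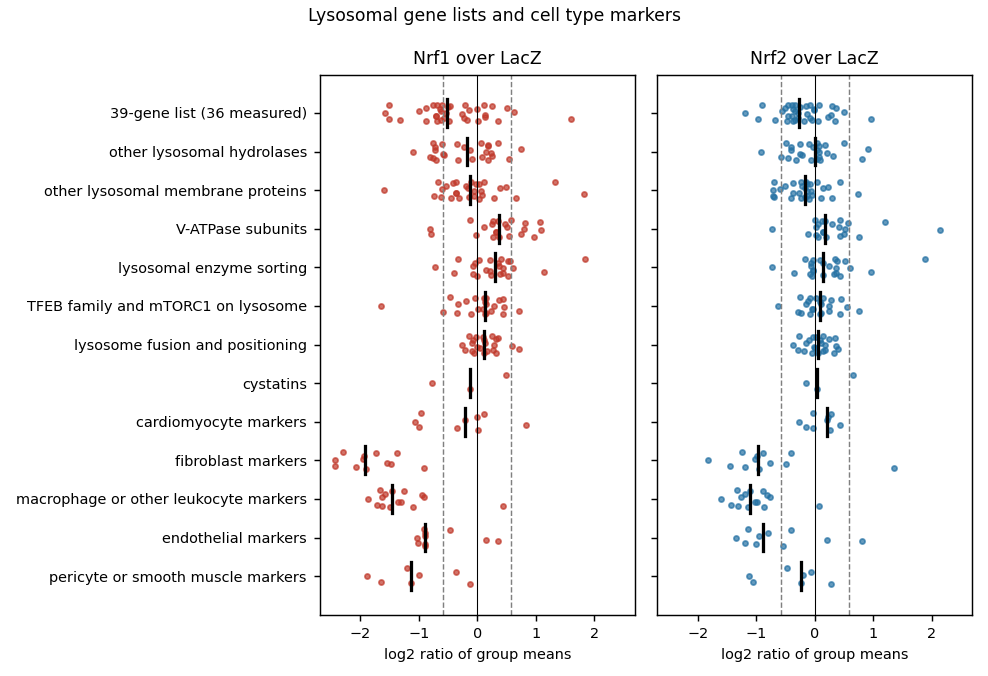
Log2 ratio of group means for each gene of the lysosomal list, 7 related lists and 5 lists of cell type markers, with Nrf1 (left) and Nrf2 (right) over LacZ. Short black bars are medians and dashed lines 1.5-fold; the V-ATPase and sorting lists lie mostly to the right of 0 with Nrf1, and the markers of fibroblasts and of macrophages or other leukocytes lie far to the left with both.

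Markers of other cell types in the cultures lay in the same direction as the low lysosomal genes. The marker counts against LacZ stand beside 11.9% of all genes higher and 18.1% lower with Nrf1. With Nrf2 these shares were 9.78% and 10.9%. Markers of the labelled cell type were present in all groups. The 9 of 10 cardiomyocyte markers that were listed had summed means of 103519 in LacZ and 87379 in Nrf1 cells (log2 ratio -0.24) and 110541 and 119806 with Nrf2 (0.12). With Nrf1 3 of the 9 were lower and 1 was higher. *Myh7*, a myosin heavy chain, had 14444 in LacZ and 6887 in Nrf1 cells (-1.07), the ventricular light chain *Myl2* had 9375 and 4689, and cardiac troponin I, *Tnni3*, had 3553 and 1819 (-0.97). The calcium release channel *Ryr2* was the 1 higher, with 4205 and 7479 (0.83). With Nrf2 0 of the 9 passed the cutoff. *Tnnt2*, cardiac troponin T, had 32049 and 27626 with Nrf1 and 34221 and 39682 with Nrf2. Of 15 macrophage or other leukocyte markers with enough reads, 14 were lower with Nrf1 and 14 with Nrf2, with medians of -1.45 and -1.11. The exception with both was *Csf1r* (0.43 and 0.08). The sum of all 16 listed markers, those with few reads included, was 2397 in LacZ and 1210 in Nrf1 cells, and 2561 and 1262 with Nrf2. *Adgre1*, the macrophage marker F4/80, had 54.3 and 14.8 with Nrf1 (-1.87) and 58.0 and 25.5 with Nrf2 (-1.18). *Ptprc*, the pan-leukocyte marker CD45, had 147 and 44.6 with Nrf1 (-1.72) and 157 and 62.3 with Nrf2 (-1.33).

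Fibroblast markers were lower in 12 of 12 with Nrf1, with a median log2 ratio of -1.92 (range -2.43 to -0.92). Their sum was 118868 in LacZ and 30874 in Nrf1 cells. Most of the LacZ sum came from the collagen genes *Col1a1* (86236) and *Col3a1* (24974). With Nrf2 9 of 12 were lower and 1 was higher, with a sum of 126943 and 67788. The 1 higher was *Mfap5*, with a log2 ratio of 1.36 with Nrf2 but -2.43 with Nrf1. Endothelial markers were lower in 7 of 10 with Nrf1 and in 6 of 10 with Nrf2, where 1 (*Egfl7*, 0.81) was higher, and pericyte or smooth muscle markers in 5 of 7 and in 2 of 7. In Nrf2 against Nrf1 cells, 9 of 12 fibroblast markers were higher and 1 was lower. Among other lists, 5 of 14 leukocyte markers and 4 of 9 cardiomyocyte markers were higher. Of all genes 12.3% were higher and 5.16% lower. The sum of all 16 listed leukocyte markers was close in both groups, at 1350 in Nrf1 and 1311 in Nrf2 cells. No marker of these lists was at 0 in any group. The lowest lysosomal genes, *Ctss*, *Ctsk*, *Ctsz* and *Gusb*, lay below the control as these lists did, and the part of other cells in their ratios was not tested. In RNA of whole cultures, fewer cells of a type and less RNA per cell cannot be told apart.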

How the data were processed

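The 39 genes and the related lists were chosen with earlier results of these data known. Per the labels and the study's methods, stranded mRNA libraries (KAPA mRNA HyperPrep) were sequenced as 75-bp single-end reads, and the tools named are FastQC 0.11.4, HISAT2 2.0.4 on Rnor_6.0, SAMtools 0.1.18 for the removal of duplicates, featureCounts 1.6.0 and edgeR 3.20.5. The removal of duplicates from single-end reads can lower high counts, and its effect here was not tested. The signal the authors deposited is a normalized count per gene (reads divided by a size factor for each library) averaged over the 3 libraries of 1 group, in 3 tables that were each normalized for 1 pair of groups. The authors' fold change, log2 fold change, p-value and adjusted p-value columns were not used. The tables hold 0 columns of single samples, so values have no SD, and no test was run. Low means under 3 (1977 to 2109 per column) were all whole-number sums of 3 steps within 1e-05, read as 1 read in each library. Total depth is not given by these values, and the 95% Clopper-Pearson counting intervals took the largest step for each read.

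Ratios of group means were computed with Python 3.11.15, pandas 2.3.3, numpy 2.4.6 and scipy 1.17.1, and drawn with matplotlib 3.10.9. Genes whose mean reached 10 in 1 group or both were compared, and 1.5-fold, the fold part of the study's own cutoff, set the call. The study also set a limit on the false discovery rate and used another filter on expression, which were not applied here. The calling step was run on simulated Poisson counts without spread between libraries. The planted changes were well past the cutoff, so this checks the code and not the calls made here. The rule for genes named was: every gene of the list past 1.5-fold in any table with its group means, *Tfeb*, *Lamp1*, *Lamp2* and *Ctsd* whatever their ratio, all others by role, and at most 4 genes of each related or marker list, those with the largest absolute log2 ratios against LacZ. *Tnnt2*, *Csf1r*, *Egfl7*, *Smpd1*, *Col1a1* and *Col3a1* were named outside this rule, after their values were seen. Alternatives were a fold cutoff of 2 or of 5 to 4, no filter or a minimum mean of 100, a pseudocount of 1, re-centring on the median of genes whose mean reached 100, group means rescaled to the same sum, and the ratio of both ratios over LacZ. Promoter sequences were matched by symbol to the mouse table, and no rat genome was used here.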

Additional observations from a re-analysis of the deposited data

How the results depend on the processing

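Log2 ratios were recomputed under the filters, the pseudocount and the other scalings. This was done for the genes past the cutoff and for *Tfeb*, *Lamp1*, *Lamp2* and *Ctsd*. Of these ratios, 184 moved by less than the reach of the counting interval and 14 moved further. Of those of genes past the cutoff, 0 changed sign, but this was fixed in advance. Re-centring and rescaling shift all ratios of a comparison by the same amount, with -0.08 as the largest shift. That is too little to bring a gene past the cutoff across 0. A filter only keeps or drops a gene and cannot move its ratio, so its part of the 184 was fixed in advance. A pseudocount of 1 is small beside these means. All 14 that moved further came from re-centring or rescaling. Since the shift is shared, the width of a gene's interval, and so its number of reads, decided which ratios these were. The counts depended most on the fold cutoff. At a cutoff of 2, 1 gene was higher and 5 were lower with Nrf1, 0 and 1 with Nrf2, and 0 and 0 in Nrf2 over Nrf1. Of all genes 4.23% and 9.8%, 4.68% and 4.27%, and 5.86% and 1.23% passed it, so the 13.9% of the list lower with Nrf1 stood closer to all genes than at 1.5-fold. At a ratio of 5 to 4, 4 were higher with Nrf1, 4 were higher and 16 lower with Nrf2, and 15 were higher and 2 lower in Nrf2 over Nrf1. The 21 lower with Nrf1 at this ratio were 58.3% of the list beside 28.2% of all genes, and the 16 lower with Nrf2 were 44.4% beside 21.4%. Of all genes 24.6% with Nrf1 and 19.8% with Nrf2 were higher, and 22.3% were higher and 16.8% lower in Nrf2 over Nrf1. Re-centring on the median of genes whose mean reached 100 left 1 gene higher with Nrf1 and made 5 higher in Nrf2 over Nrf1, with a median log2 ratio of 0.23. Rescaling both groups to the same sum left 1 gene higher with Nrf1 and gave a median log2 ratio of -0.34 with Nrf2. The count lower with Nrf1 was otherwise 16 to 21. No paired analysis was possible because each table gives 1 mean per group, with no column for a replicate number. For the same reason the planned fits without each replicate in turn were not run, and it is not known here whether 1 library decides a mean. With Nrf1 the counting intervals of *Galns*, *Arsa*, *Ctsc*, *Man2b1* and *Glb1* reach across the cutoff.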
